A study of Mus musculus with 9 samples.

Results

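The genes described here are the respiratory chain genes of the mouse: the protein-coding genes of the mitochondrial genome (symbols that begin with mt-) and the nuclear genes whose symbols mark subunits of complexes I to V (Nduf followed by a, b, c, s or v and a number, Sdha to Sdhd, Uqcr, Cox4 to Cox8, Atp5). They were picked by symbol among the protein-coding genes, which gave 97 of 21890 (53801 rows in the counts table), 13 mitochondrial and 84 nuclear. Each was also placed in a complex by its symbol alone, Ndufa4 in complex I and Atp5s in complex V, which need not be where its protein works. The libraries are poly-A RNA-seq of CD11b+ myeloid cells, sorted by flow cytometry from the tumor-bearing brain hemisphere of male C57BL/6J mice aged 10 to 12 weeks whose striatum had received GL261 tdT+luc+ glioma cells. CTR mice had saline by gavage (2 libraries). OAT-1746 mice were given 50 mg/kg of OAT-1746, an oral inhibitor of arginase 1 and 2, by gavage 2 times a day from day 1 (2 libraries). Anti-PD-1 mice were given the antibody at 2.5 mg/kg into the peritoneum on days 8, 10, 12 and 14 (2 libraries). COMB mice had both agents (3 libraries). The methods give day 28 for collection and a figure legend day 21. Nothing says which mouse or mice a library came from beyond the word biological replicate, and the sort also takes in granulocytes, some dendritic cells and NK cells, so the values belong to a mixture of CD11b+ cells. In such bulk samples fewer cells of a type and less RNA per cell cannot be told apart.

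The respiratory chain sits in the inner mitochondrial membrane. Complexes I, II, III and IV pass electrons from NADH and succinate to oxygen, and complex V, the ATP synthase, makes ATP from the proton gradient that complexes I, III and IV build. Complex II is wholly nuclear encoded, whereas the other complexes combine subunits of both genomes: the mitochondrial genes are transcribed inside the organelle as long precursors from each strand, and the nuclear subunits are imported as proteins.

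Library totals ran from 13048075 counts (COMB replicate 1) to 18796479 counts (anti-PD-1 replicate 2). Of the 97 members, 87 had enough counts to be tested among 12538 protein-coding genes, 7 of the 13 mitochondrial and 80 of the 84 nuclear genes. Among the nuclear genes these were 36 of 37 for complex I, all 4 for complex II, all 8 for complex III, 15 of 18 for complex IV and all 17 for complex V. The 4 nuclear genes without a test were Ndufa4l2, Cox8b, Cox7b2 and Cox8c, the last 2 at 0 counts in all 9 libraries; Ndufa4l2, Cox7b2 and Cox8c are named for these low values, after they were seen. OAT-1746 replicate 2 stood apart from the others over all tested genes: its Pearson correlation with the other 8 libraries was 0.911 to 0.956, while those 8 reached 0.960 to 0.989 among themselves.

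The mitochondrial genes left without a test were not spread evenly over the mitochondrial genome. The subunit genes mt-Co2, mt-Atp8, mt-Atp6, mt-Co3 and mt-Nd4l had 0 counts in all 9 libraries, and mt-Nd3 had 0 to 7 counts in each. They follow one another on chrM between 7013 and 10173 (GRCm38), with mt-Co1 before them and mt-Nd4 after. A count of 0 allows up to 0.16 to 0.23 counts in CPM at these depths (3 counts of the total, counting error only). For comparison, mt-Co1 alone had 30426 to 130842 counts in a library. Mouse chromosome 1 carries a nuclear copy of this stretch, annotated as pseudogenes chosen here after their values were seen, and the authors counted reads with a mapping quality of at least 10. The copy Gm28661 matches 681 of the 684 bases of mt-Co2 at 100% identity, Gm10925 matches 678 of 681 bases of mt-Atp6 at 100%, and Gm28437 matches 783 of 784 bases of mt-Co3 at 100%. Gm10222 matches 294 of 297 bases of mt-Nd4l at 100%, and Gm28438 matches 345 of 348 bases of mt-Nd3 at 99.71%.

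The copies themselves held few counts: Gm28661 had 0 to 3, Gm10925 and Gm28437 had 0 or 1, and Gm28438 and Gm10222 had 0 in all 9 libraries. In windows of 50 bases, 98% to 100% of mt-Co2, mt-Atp6, mt-Co3, mt-Nd3 and mt-Nd4l also occurred in an annotated copy. The counted genes shared fewer: 62.2% for mt-Nd4, whose first 876 bases equal Gm28439, 51.1% for mt-Co1, 8.19% for mt-Nd2, 7.61% for mt-Nd5, and 0% for mt-Nd1, mt-Nd6 and mt-Cytb. mt-Atp8, also at 0 counts, is 204 bases long and could not enter the list of copies, which had a minimum of 250 bases. The searches for the closest match and for shared windows had no length minimum. There the closest annotated match of mt-Atp8, Gm28925, was 81.44% identical over 167 bases, and mt-Atp8 shared 0% of its windows. Only annotated genes were searched, so the sequence between the annotated copies on chromosome 1 was not. From which windows of mt-Co1 and mt-Nd4 the counted reads came cannot be read from gene counts, and whether the copies account for the counts of 0 was not tested.

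Stretches of 60 bases show how close these genes are to their copies. Over the aligned bases, 1 base separates both mt-Nd3, with few counts, and mt-Co1, with many, from a copy. The copy Gm28438 covers 345 of the 348 bases of mt-Nd3, but Gm29216 covers only 483 of the 1545 bases of mt-Co1. The stretches are from the annotated transcripts (GENCODE, GRCm38), with the bases that differ within a pair in capitals. The mt-Co2 stretch is chrM:7013-7072 (+ strand) and its copy chr1:24615506-24615565 (− strand), with 0 differing bases. The mt-Nd3 stretch is chrM:9459-9518 (+) and its copy chr1:24613060-24613119 (−), with 1. The mt-Co1 stretch is chrM:6390-6449 (+) and its copy chr1:24616129-24616188 (−), with 1. The mt-Cytb stretch, from a counted gene, is chrM:14146-14205 (+) and its closest copy chr4:80003990-80004049 (+), with 3; over 1142 bases that copy, Gm11410, is 92.91% identical.
mt-Co2: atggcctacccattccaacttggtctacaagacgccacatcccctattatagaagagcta
Gm28661: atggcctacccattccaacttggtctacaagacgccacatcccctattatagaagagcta
mt-Nd3: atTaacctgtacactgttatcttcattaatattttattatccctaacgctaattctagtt
Gm28438: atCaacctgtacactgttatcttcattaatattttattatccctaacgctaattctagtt
mt-Co1: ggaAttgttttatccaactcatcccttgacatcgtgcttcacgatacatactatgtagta
Gm29216: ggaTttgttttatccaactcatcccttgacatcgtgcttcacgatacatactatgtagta
mt-Cytb: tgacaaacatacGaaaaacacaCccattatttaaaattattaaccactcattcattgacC
Gm11410: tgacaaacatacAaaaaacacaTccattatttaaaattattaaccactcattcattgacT

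**Figure D1:**
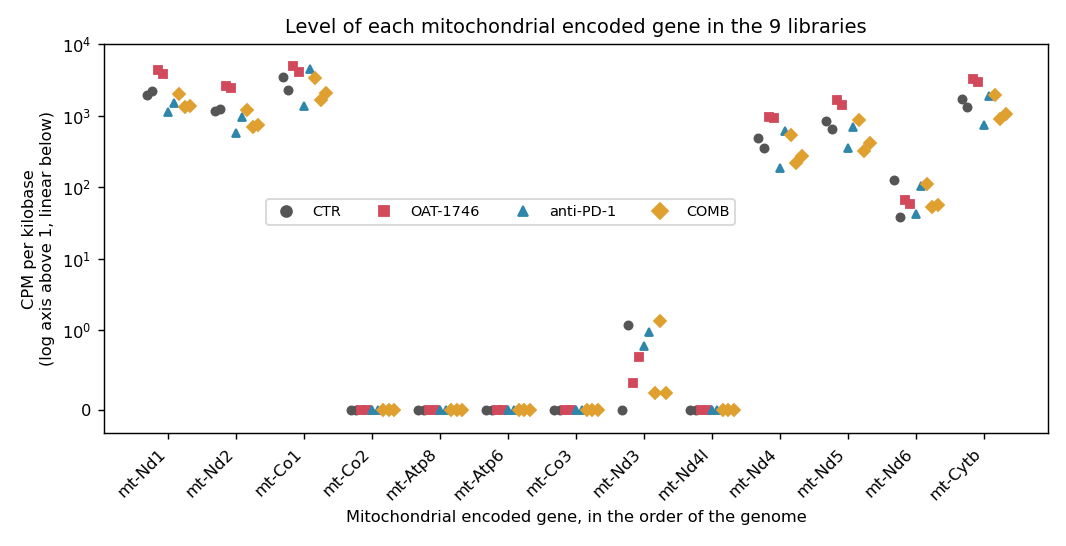
Level of each of the 13 mitochondrial encoded genes, in genome order along the horizontal axis, in CPM per kilobase of exon on the vertical axis (logarithmic above 1, linear below); each symbol is 1 of 9 libraries. The 7 counted genes stand apart from the 6 genes with at most 7 counts, which form 1 block from mt-Co2 to mt-Nd4l.

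Per kilobase of exon and averaged over the 9 libraries, the counted mitochondrial genes were far above the nuclear ones, with a median of 1284 CPM per kilobase for 7 mitochondrial genes, 42.9 for 80 nuclear members and 4.49 for all tested genes. The order of the mitochondrial levels was mt-Co1 at 3067 CPM per kilobase, mt-Nd1 at 2162, mt-Cytb at 1742, mt-Nd2 at 1284, mt-Nd5 at 799.96, mt-Nd4 at 502 and mt-Nd6 at 72.4. These levels are divided by the full exon length, windows shared with nuclear copies included, so the order holds for that measure only. mt-Nd6 is the one protein gene encoded on the opposite strand of the circle, and it was the lowest of the 7. In complex IV the highest nuclear levels were those of Cox8a (296 CPM per kilobase) and Cox6a1 (205). In complex V they were those of Atp5a1 (181) and Atp5b (164), the α and β subunits of the ATP synthase head. Complex III was led by Uqcrh (93.7 CPM per kilobase) and Uqcr10 (74.2), complex I by Ndufa1 (89.9) and Ndufc2 (88.3), and complex II by the membrane anchor Sdhd (83.8) and the flavoprotein Sdha (48.3).

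Summed over each genome, the 2 sets of genes took different shares of the libraries. The mitochondrial sum was 1.21% and 0.970% of all counts in CTR, 2.22% and 2.04% in OAT-1746, 0.553% and 1.28% in anti-PD-1, and 1.34%, 0.600% and 0.729% in COMB. Both OAT-1746 libraries were above the other 7, which overlapped one another. The nuclear sum was 0.717% and 0.714% in CTR, 0.544% and 0.388% in OAT-1746, 0.704% and 0.661% in anti-PD-1, and 0.668%, 0.893% and 0.802% in COMB. Here both OAT-1746 libraries were below the other 7. Scaled between libraries, the mitochondrial sum averaged 11391 ± 1806 CPM (SD, n = 2) in CTR, 21014 ± 1995 (n = 2) in OAT-1746, 9564 ± 5697 (n = 2) with anti-PD-1 and 8988 ± 3464 (n = 3) in COMB. The nuclear sum averaged 7490 ± 63.5 CPM (SD, n = 2) in CTR, 4616 ± 1260.3 (n = 2) in OAT-1746, 7020.3 ± 29.5 (n = 2) with anti-PD-1 and 8134 ± 1546 (n = 3) in COMB.

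The ratio of the mitochondrial to the nuclear counts does not depend on how libraries are scaled to each other. It was 1.68 and 1.36 in CTR, 4.07 and 5.26 in OAT-1746, 0.786 and 1.94 in anti-PD-1, and 2.00, 0.672 and 0.909 in COMB. The 2 OAT-1746 libraries were the highest of the 9, and the ranges of the other 3 groups overlapped. On the log2 scale the mean ratio was 0.60 ± 0.22 (SD, n = 2) in CTR, 2.21 ± 0.26 (n = 2) in OAT-1746, 0.31 ± 0.92 (n = 2) with anti-PD-1 and 0.10 ± 0.81 (n = 3) in COMB. OAT-1746 minus CTR was 1.61, and 1.43 to 1.80 with any 1 library of these groups left out, against a pooled SD within groups of 0.68. COMB minus OAT-1746 was −2.12, and −1.43 when the log2 CPM of the genes was averaged in place of summing counts. Anti-PD-1 minus CTR was −0.29 and COMB minus CTR −0.50, both within the pooled SD. The anti-PD-1 difference turned to 0.36 without anti-PD-1 replicate 1, and was −0.94 without anti-PD-1 replicate 2, −0.14 without CTR replicate 1, −0.08 with log2 CPM averaged over genes, −0.44 without CTR replicate 2 and −0.45 without mt-Co1, the most abundant gene. The COMB difference was −0.95 without COMB replicate 1, −0.17 without COMB replicate 2, and −0.22 with log2 CPM averaged.

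**Figure D2:**
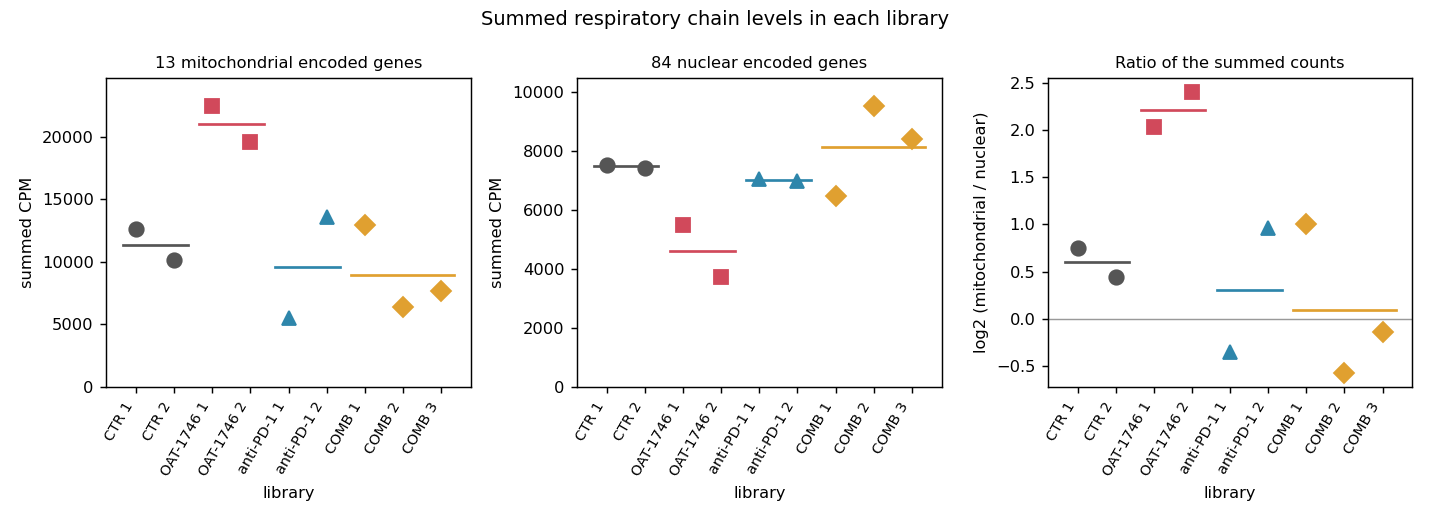
Summed CPM of the 13 mitochondrial genes, summed CPM of the 84 nuclear genes and log2 of the ratio of their counts (vertical axes) in each of the 9 libraries (horizontal axes); lines are group means. The OAT-1746 libraries have the 2 highest mitochondrial sums (22425 and 19604 CPM), the 2 lowest nuclear sums (5507 and 3725 CPM) and the 2 highest ratios.

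OAT-1746 against CTR compares the arginase inhibitor alone with saline. Of the 7 mitochondrial genes, 6 had higher levels in both OAT-1746 libraries than in either CTR library (30.8% of all tested genes did), and of the 80 nuclear genes 75 had lower levels in both (32.1% of all). mt-Nd1, a core subunit of complex I, was at 1873 and 2113 CPM in CTR, 4076 and 3604 in OAT-1746, 1062 and 1427 in anti-PD-1, and 1929, 1248 and 1290.3 in COMB. mt-Nd2, another complex I core subunit, was at 1214 and 1299.9 CPM in CTR, 2682 and 2524 in OAT-1746, 599 and 976 in anti-PD-1, and 1222, 707 and 772 in COMB. For both genes the OAT-1746 libraries were the highest of the 9 and the anti-PD-1 libraries lay below CTR. The log2 fold change from CTR to OAT-1746 was 0.95 (SE 0.256) for mt-Nd1 and 1.05 (SE 0.305) for mt-Nd2, with adjusted p of 0.0704 and 0.0740 in edgeR's quasi-likelihood test (Benjamini-Hochberg over 12538 genes), and both had higher levels in 2 of 2 libraries. DESeq2 gave these 2 genes adjusted p of 0.0105 and 0.0154.

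The other mitochondrial genes had wider spread in CTR. mt-Cytb, the mitochondrial subunit of complex III, was at 1972 and 1528 CPM in CTR, 3721 and 3315 in OAT-1746, 835 and 2119.8 in anti-PD-1, and 2216, 1014 and 1216 in COMB. mt-Co1, the catalytic subunit of complex IV, was at 5335 and 3503 CPM in CTR, 7616 and 6254 in OAT-1746, 2120.15 and 6925 in anti-PD-1, and 5163, 2507 and 3224 in COMB. Both OAT-1746 libraries were above both CTR libraries for these genes, but anti-PD-1 replicate 2 came within the OAT-1746 range for mt-Co1. The log2 fold changes were 1.01 for mt-Cytb, 0.65 for mt-Co1, 1.04 for mt-Nd5 and 1.17 for mt-Nd4, with edgeR adjusted p of 0.163, 0.395, 0.156 and 0.175. mt-Nd6 had the other sign, with little hold: it was at 64.5 and 19.9988 CPM in CTR, 34.6 and 30.3 in OAT-1746, 21.5 and 53.3 in anti-PD-1, and 58.1, 27.1 and 28.8 in COMB. Its log2 fold change was −0.38 (edgeR adjusted p = 0.669), and turned to 0.71 without CTR replicate 1 and 0.13 when corrected for length and GC; its groups overlapped in every comparison.

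No member passed edgeR's threshold in this comparison, nor did any of the 12538 genes (0% higher, 0% lower). At an unadjusted p under 0.05, edgeR gave 2 mitochondrial genes higher (16.1% of all tested genes were) and 61 nuclear genes lower (16.2% of all). DESeq2, at its adjusted p, gave 2 mitochondrial genes higher (8.36% of all) and 33 nuclear genes lower (7.37% of all). The 61 members lower were 21 without OAT-1746 replicate 2, 35 without CTR replicate 1 and 39 without CTR replicate 2. The edgeR count of 0 became 65 without OAT-1746 replicate 1, with OAT-1746 replicate 2 then assumed to vary like the other groups, and 6 without COMB replicate 1; with no filter on low counts it was 8. Over all genes these fits called 3617, 278 and 587, in place of 0. The median log2 fold change was 1.01 over 7 mitochondrial genes, −0.73 over 80 nuclear genes and 0.01 over all tested genes. Without OAT-1746 replicate 2 the nuclear median was −0.43, and without OAT-1746 replicate 1 it was −1.16; corrected for length and GC content it was −0.46. The mitochondrial median was 0.85 to 1.0998 with any 1 library left out.

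The nuclear genes showed lower values in OAT-1746 in each complex. Medians of the log2 fold change were −0.69 for 36 complex I genes, −0.62 for 4 complex II genes, −0.63 for 8 complex III genes, −0.80 for 15 complex IV genes and −0.80 for 17 complex V genes. The counts at an unadjusted p under 0.05 (edgeR) were 25, 3, 7, 10 and 16 genes lower, in that order, and DESeq2 gave 14, 1, 2, 5 and 11; of all tested genes 16.2% and 7.37% were lower. Ndufc1, an accessory subunit of complex I, was at 20.1 and 19.2 CPM in CTR, 7.97 and 6.70 in OAT-1746, 19.7 and 18.9 in anti-PD-1, and 16.0, 31.3 and 25.9 in COMB. Uqcr10, a small subunit of complex III, was at 50.8 and 42.9 CPM in CTR, 22.8 and 16.1 in OAT-1746, 51.1 and 47.1 in anti-PD-1, and 43.9, 62.0 and 53.3 in COMB. The OAT-1746 libraries were the 2 lowest of the 9 for both genes. Their log2 fold changes were −1.42 (SE 0.284) and −1.27 (SE 0.220), each with an edgeR adjusted p of 0.0610 and lower levels in 2 of 2 libraries. Atp5k, a membrane subunit of ATP synthase dimers, had −1.23 (edgeR adjusted p = 0.0795). The smallest differences were those of Ndufs1 (−0.14), the large iron-sulfur subunit of complex I, of Ndufa4 (0.11) and of Cox7a2l (−0.23), a factor in supercomplex assembly. The sign of Ndufa4 turned without CTR replicate 1 (−0.12) or OAT-1746 replicate 1 (−0.04), and that of Cox7a2l with the length and GC correction (0.12). Atp5s had the opposite sign, 0.89, at 2.64 and 2.12 CPM in CTR and 2.68 and 6.18 in OAT-1746. It is named for this, after its values were seen. Cox4i2 was at 0.68 and turned to −0.0095 without CTR replicate 2. With Ndufa4, these were the 3 nuclear genes above 0.

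**Figure D3:**
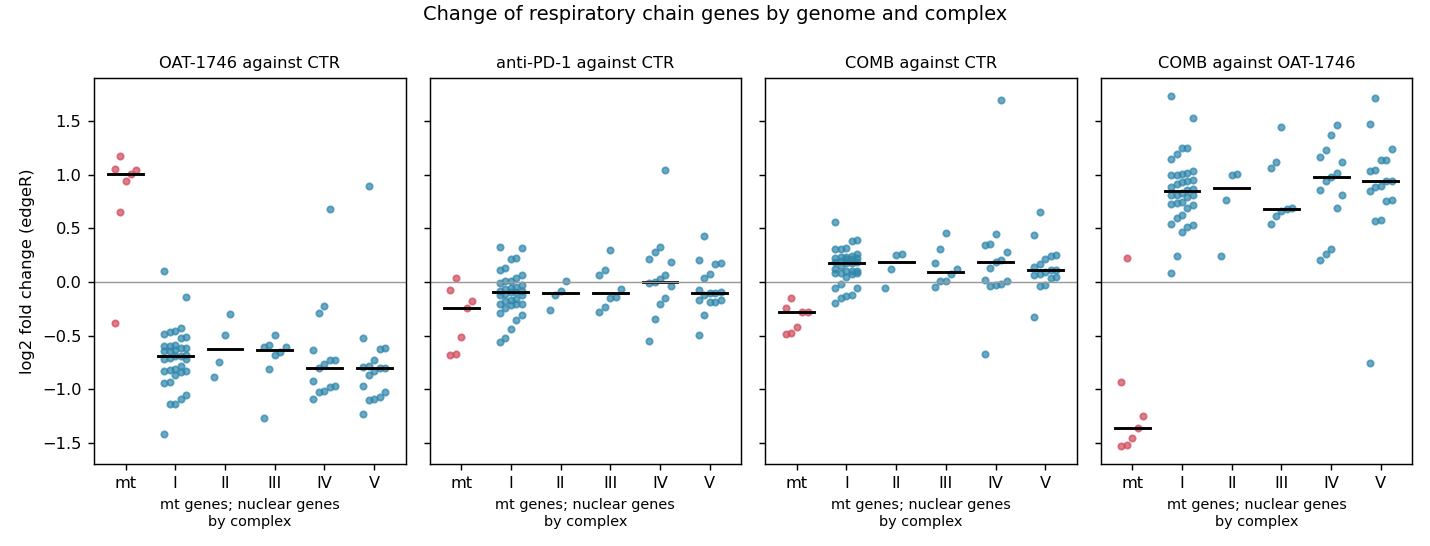
Log2 fold change (edgeR, vertical axes) of each tested member in 4 comparisons, with the mitochondrial genes (mt) and the nuclear genes of complexes I to V along the horizontal axes; black lines are medians and Cox7a1, with 2 and 0 counts in OAT-1746, is counted in the median but not drawn. The mitochondrial and nuclear medians have opposite signs in OAT-1746 against CTR (1.01 for mt), in COMB against OAT-1746 (−1.37 for mt) and in COMB against CTR, where they are closer to 0 (−0.28 for mt); in anti-PD-1 against CTR both are below 0 (−0.24 for mt).

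COMB against OAT-1746 asks what the antibody added to the inhibitor, and it is the comparison in which members passed the test. In edgeR, 47 nuclear genes rose (6.84% of all tested genes did) and 3 mitochondrial genes fell (8.94% of all). The other directions held 0 members, also by DESeq2 and at an unadjusted p under 0.05. At an unadjusted p under 0.05 the counts were 71 nuclear genes higher (18.3% of all) and 5 mitochondrial genes lower (18.8% of all), and DESeq2 gave 65 (13.2% of all) and 5 (11.3% of all). Levels did not overlap for 67 nuclear genes, higher in COMB (25% of all), and 6 mitochondrial genes, lower in COMB (28.9% of all). The median log2 fold change was −1.37 over the mitochondrial genes, 0.88 over the nuclear genes and 0.00 over all tested genes.

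These calls depended on single libraries. The 50 members called were 0 without OAT-1746 replicate 2, without COMB replicate 2 or without COMB replicate 3, 20 without CTR replicate 1 or CTR replicate 2, and 23 without anti-PD-1 replicate 1 or anti-PD-1 replicate 2. The 71 members higher at an unadjusted p under 0.05 were 47 without OAT-1746 replicate 2, and the 5 lower were 3 without COMB replicate 3. The members called were 73 without OAT-1746 replicate 1 and 72 without COMB replicate 1, where all genes called were 4033 and 2923, in place of 1979. Corrected for gene length and GC content the count was 24, of which 20 were higher and 4 lower, while all genes called were 1544, and the nuclear median was 0.47. All genes called were 14 without COMB replicate 2 and 5 without COMB replicate 3. The nuclear median was 0.58 without OAT-1746 replicate 2 and 1.28 without OAT-1746 replicate 1, and the mitochondrial median stayed between −1.69 and −1.21 with any 1 library left out. The direction of both medians was the same in all of these.

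The 3 mitochondrial genes that fell encode complex I subunits: mt-Nd1 fell by 1.37 on the log2 scale (SE 0.228, edgeR adjusted p = 0.0188), mt-Nd2 by 1.53 (SE 0.272, adjusted p = 0.0202) and mt-Nd5 by 1.52 (SE 0.414, adjusted p = 0.0422), each lower in 3 of 3 COMB libraries. Their calls were lost without OAT-1746 replicate 2, COMB replicate 2 or COMB replicate 3, and that of mt-Nd5 with any 1 library other than COMB replicate 1 left out. mt-Nd4 (−1.45, edgeR adjusted p = 0.0693), mt-Cytb (−1.25, adjusted p = 0.0655) and mt-Co1 (−0.93, adjusted p = 0.173) had the same sign without passing, and mt-Nd6 was at 0.23 (adjusted p = 0.787). The value of mt-Nd6 turned to −0.25 without COMB replicate 1, −0.11 with limma voom and −0.29 with the length and GC correction, so that all 7 mitochondrial genes were then below 0. Each of the 3 shares under 10% of its windows with annotated nuclear copies.

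Among the nuclear genes, 20 of 36 rose in complex I, 3 of 4 in complex II, 4 of 8 in complex III, 8 of 15 in complex IV and 12 of 17 in complex V (6.84% of all tested genes rose), with median log2 fold changes of 0.85, 0.88, 0.69, 0.98 and 0.94. Ndufc1 rose by 1.74 on the log2 scale (SE 0.269, edgeR adjusted p = 0.0160) and Uqcr10 by 1.45 (SE 0.208, adjusted p = 0.0160), higher in 3 of 3 COMB libraries. Atp5e, the ε subunit of ATP synthase, was at 101 and 88.1 CPM in CTR, 57.4 and 32.7 in OAT-1746, 135 and 120.0 in anti-PD-1, and 104, 185 and 155 in COMB. It rose by 1.72 (SE 0.297, edgeR adjusted p = 0.0192), and its CTR and anti-PD-1 libraries lay between the OAT-1746 and the highest COMB values. Ndufb6, a membrane arm subunit of complex I, rose by 1.53 (edgeR adjusted p = 0.0211), Cox7a2 by 1.47 (adjusted p = 0.0246) and Uqcrfs1, the Rieske iron-sulfur protein of complex III, by 1.07 (adjusted p = 0.0242). Ndufa2 (1.19, edgeR adjusted p = 0.0192) and Ndufs7 (0.95, adjusted p = 0.0222), a complex I subunit that carries an iron-sulfur cluster, also passed, and lost their calls under the length and GC correction. None of the calls of these 8 genes held without OAT-1746 replicate 2, without COMB replicate 2 or without COMB replicate 3.

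Complex II, with no mitochondrial subunit, offers all of its 4 genes. Sdhb, the iron-sulfur subunit, was at 113 in both CTR libraries, 74.7 and 47.7 CPM in OAT-1746, 105 and 103 in anti-PD-1, and 89.8, 146 and 132 in COMB. Sdha, the catalytic flavoprotein, was at 219.7 and 219 CPM in CTR, 184 and 174 in OAT-1746, 169 and 197 in anti-PD-1, and 203, 215 and 215 in COMB, a much narrower range. From OAT-1746 to COMB the iron-sulfur subunit Sdhb rose by 1.00 (edgeR adjusted p = 0.0341), the anchors Sdhd by 0.99 (adjusted p = 0.0354) and Sdhc by 0.76 (adjusted p = 0.0360), and Sdha was at 0.24 (adjusted p = 0.229). The 3 calls were lost without CTR replicate 1, CTR replicate 2, OAT-1746 replicate 2, anti-PD-1 replicate 1, anti-PD-1 replicate 2, COMB replicate 2 or COMB replicate 3, and that of Sdhd under the length and GC correction. From CTR to OAT-1746 the log2 fold changes were −0.88 for Sdhb, −0.74 for Sdhd, −0.50 for Sdhc and −0.30 for Sdha, none past edgeR's threshold (3 under an unadjusted p of 0.05, 1 by DESeq2).

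Subunits with paralogs were read mainly from the widely expressed form. Cox4i1 averaged 177 CPM per kilobase over the 9 libraries against 1.21 for Cox4i2, Cox6a1 205 against 4.73 for the muscle form Cox6a2, and Cox6b1 158 against 1.01 for the testis form Cox6b2. Cox7a2l was at 131 CPM per kilobase, Cox7a2 at 62.6 and the muscle form Cox7a1 at 1.08, and Cox8a was at 296 against 0.240 for Cox8b. From OAT-1746 to COMB, Cox4i1 rose by 0.86 (edgeR adjusted p = 0.0318) and Cox6b1 by 1.16 (adjusted p = 0.0302), while Cox4i2 (1.02), Cox6a2 (0.26) and Cox6b2 (0.30) did not pass. With the length and GC correction Cox6a2 turned to −0.51 and Cox6b2 to −0.19, and without OAT-1746 replicate 2 Cox6b2 was at −0.46. Cox7a1 is among the genes called in this comparison, with 2 and 0 counts in OAT-1746, 11 and 9 in CTR, 7 and 10 with anti-PD-1 and 6, 18 and 17 in COMB. The calls of Cox4i1, Cox6b1 and Cox7a1 were lost without CTR replicate 1, CTR replicate 2, OAT-1746 replicate 2, COMB replicate 2 or COMB replicate 3 and under the length and GC correction, that of Cox7a1 also without anti-PD-1 replicate 1 or anti-PD-1 replicate 2. The c subunit of ATP synthase has 3 genes for 1 protein: per kilobase Atp5g3 was at 51.5 CPM, Atp5g2 at 31.8 and Atp5g1 at 11.9. Atp5g1 rose by 1.14 (edgeR adjusted p = 0.0274) and Atp5g3 by 1.14 (adjusted p = 0.0256), calls lost without OAT-1746 replicate 2, COMB replicate 2 or COMB replicate 3, and Atp5g2 was at 0.58 (adjusted p = 0.0782).

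Anti-PD-1 against CTR asks what the antibody alone did, COMB against CTR what both agents did together; the 3 comparisons with CTR share its 2 libraries. In anti-PD-1 against CTR no member passed in edgeR, as for all genes (0% in either direction), and DESeq2 also gave 0 members (0.112% of all genes higher, 0% lower). At an unadjusted p under 0.05, edgeR gave mt-Nd1 and Ndufa12 lower (1.94% of all genes) and 0 members higher (3.18% of all). mt-Nd1 had a log2 fold change of −0.68 (SE 0.255, edgeR adjusted p = 0.951), and Ndufa12, an accessory subunit of complex I, −0.52 (adjusted p = 0.951). The 2 members lower were 10 with the length and GC correction and 0 to 5 with 1 library left out, 5 without COMB replicate 1 and 0 without anti-PD-1 replicate 1 or CTR replicate 2. The median was −0.24 over the mitochondrial genes, −0.09 over the nuclear genes and 0.02 over all genes. The mitochondrial median turned to 0.28 without anti-PD-1 replicate 1, and was −1.07 without anti-PD-1 replicate 2, −0.06 without CTR replicate 1 and −0.59 without CTR replicate 2, so the 2 anti-PD-1 libraries lay on either side of CTR.

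In COMB against CTR no member and no other gene passed in edgeR (0% higher, 0% lower), and DESeq2 gave 0 members (0.152% of all genes higher, 0.128% lower). At an unadjusted p under 0.05, edgeR gave Ndufa2 and Atp5e higher (3.21% of all genes) and 0 members lower (3.37% of all). Ndufa2, a complex I accessory subunit, was at 41.4 and 38.7 CPM in CTR and 44.1, 71.1 and 61.6 in COMB, a log2 fold change of 0.56 (edgeR adjusted p = 0.752), and Atp5e was at 0.65 (adjusted p = 0.752). The 2 members higher were 12 with limma voom and 0 to 11 with 1 library left out, 11 without COMB replicate 1 and 0 without COMB replicate 2 or CTR replicate 2. The median was −0.28 over the mitochondrial genes, 0.13 over the nuclear genes and −0.00 over all genes. The mitochondrial median was −0.67 without COMB replicate 1, −0.08 without COMB replicate 2, −0.17 without COMB replicate 3, −0.01 without CTR replicate 1 and −0.51 without CTR replicate 2. The nuclear median was 0.26 without COMB replicate 1, 0.01 without COMB replicate 2 and 0.00 with the length and GC correction.

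COMB against anti-PD-1 asks what the inhibitor added to the antibody. No member passed in edgeR (0% of all genes in either direction), and none had an unadjusted p under 0.05 (1.98% of all genes higher, 5.26% lower) or an adjusted p under 0.05 in DESeq2 (0.0558% higher, 0.319% lower). At an unadjusted p under 0.05, 14 members were higher without COMB replicate 1, 4 without OAT-1746 replicate 2 and 12 with limma voom. The median log2 fold change was 0.02 over the mitochondrial genes and 0.21 over the nuclear genes, against −0.01 over all genes, and 75 of 80 nuclear genes were above 0 (48.7% of all genes were). The nuclear median was 0.38 without COMB replicate 1 and 0.08 without COMB replicate 2, and the mitochondrial median ran from −0.49 without anti-PD-1 replicate 1 to 0.78 without anti-PD-1 replicate 2.

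The interaction, the effect of the inhibitor in mice given the antibody minus its effect in mice without it, asks whether the difference seen with OAT-1746 alone was the same under anti-PD-1. Its median was −0.97 over the mitochondrial genes, 0.93 over the nuclear genes and −0.02 over all genes. No member passed in edgeR (0.00798% of all genes higher, 0.351% lower). At an unadjusted p under 0.05, edgeR gave 60 nuclear genes higher (11.8% of all) and 0 members lower (14.4% of all), and DESeq2 gave 25 nuclear genes higher (3.61% of all) and 0 members lower (4.79% of all). By complex the nuclear medians were 0.95 for I, 0.92 for II, 0.87 for III, 0.90 for IV and 1.08 for V. Uqcr10 had 1.38 (SE 0.296, edgeR adjusted p = 0.0778) and Ndufc1 1.76 (SE 0.379, adjusted p = 0.0778). The mitochondrial median was −0.26 without anti-PD-1 replicate 2, and the nuclear median 0.61 with the length and GC correction. The edgeR count of 0 became 64 without OAT-1746 replicate 1 and 8 without COMB replicate 1, and limma voom with sample weights gave 7; over all genes these fits called 2734, 424 and 428, in place of 45.

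Taken library by library, the nuclear genes of the OAT-1746 and COMB libraries lay mostly on one side of CTR. Against the mean of CTR, the median log2 difference of the 80 nuclear genes was −0.44 and −1.15 in OAT-1746, −0.02 and −0.11 in anti-PD-1, and −0.21, 0.38 and 0.20 in COMB, with 77 and 78 of 80 genes below the CTR mean in the OAT-1746 libraries (6338 and 6083 of all 12538 genes). In COMB replicate 1, 71 of 80 were below that mean (6792 of all genes), and in COMB replicate 2, 78 of 80 were above it (6568 of all). In anti-PD-1 the genes below it were 46 and 58 of 80 (6010 and 5665 of all genes). For the 7 mitochondrial genes the median was 1.09 and 0.93 in OAT-1746, −1.06 and 0.29 in anti-PD-1, and 0.26, −0.79 and −0.62 in COMB. COMB replicate 1 and anti-PD-1 replicate 2 thus lay on the OAT-1746 side of CTR for both genomes, and the other COMB libraries on the opposite side. The complexes did not differ much within a library: in OAT-1746 replicate 2 the medians were −1.07 for complex I, −0.93 for II, −0.997 for III, −1.28 for IV and −1.19 for V.

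**Figure D4:**
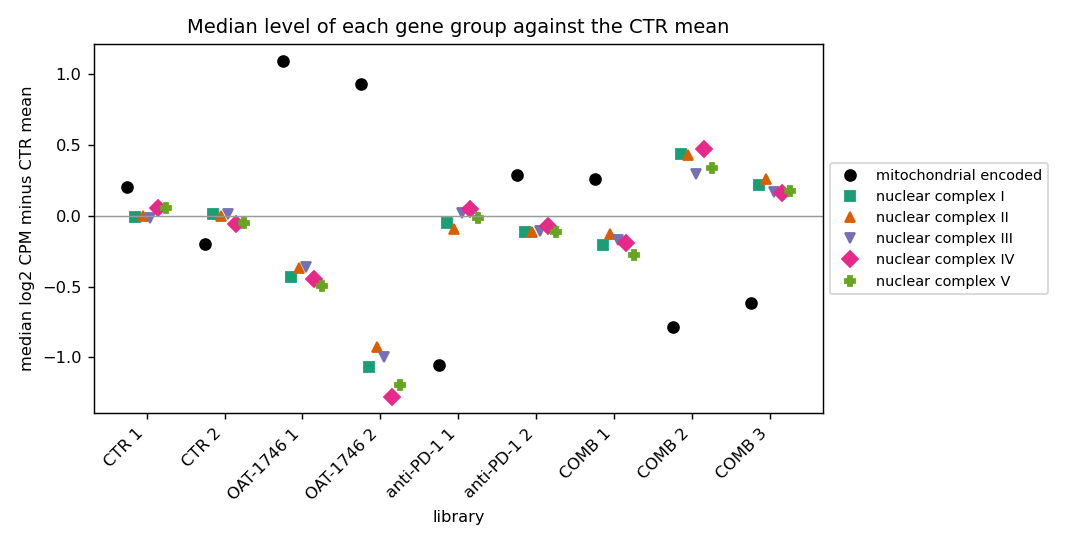
Median log2 difference from the CTR mean (vertical axis) of the 7 counted mitochondrial genes and of the nuclear genes of each complex in every library (horizontal axis). The nuclear complexes lie close together in each library and opposite in sign to the mitochondrial genes in both OAT-1746 libraries, in anti-PD-1 replicate 2 and in the 3 COMB libraries.

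Markers of cell types in the sort also differed between these libraries, and their part in the result was not tested. The marker counts stand beside these shares of all tested genes. In OAT-1746 against CTR 16.1% were higher and 16.2% lower at an unadjusted p under 0.05 (edgeR). From OAT-1746 to COMB 18.3% were higher and 18.8% lower at that p, and 6.84% and 8.94% passed the adjusted threshold. All 10 listed microglia genes were counted in each library, with a summed level of 14001 and 22014 CPM in CTR, 29219 and 36756 in OAT-1746, 20652 and 16714 in anti-PD-1, and 25452, 19112 and 17971 in COMB. In OAT-1746 against CTR all 10 were higher at an unadjusted p under 0.05 (edgeR, median log2 fold change 0.93, 0 past the adjusted threshold), and from OAT-1746 to COMB 9 of 10 were lower at an unadjusted p under 0.05 (median −0.70), of which 2 passed the adjusted threshold. The 10 monocyte and macrophage genes, led by Tgfbi, summed to 9024 and 8516 CPM in CTR, 6453 and 1009.8 in OAT-1746, 9040.3 and 10117 in anti-PD-1, and 6521, 10181 and 10324 in COMB. S100a4 was at 0 in OAT-1746 replicate 2, but at most 3.21 CPM in any library. All 10 had log2 fold changes below 0 in OAT-1746, 4 of them at an unadjusted p under 0.05 (edgeR, median −0.90). Yet in OAT-1746 replicate 1 Ly6c2 (929 CPM) and Plac8 (663) were above both CTR libraries (303 and 692, 345 and 578). From OAT-1746 to COMB 4 were higher at that p (median 0.86), of which 2, S100a4 and F13a1, passed the adjusted threshold. The library with the lowest monocyte and macrophage level, OAT-1746 replicate 2, also had the lowest nuclear respiratory chain level, and COMB replicate 1 the lowest of both within COMB. The 8 genes of proliferating cells, led by Pcna, summed to 257 and 252 CPM in CTR, 165 and 94.3 in OAT-1746, 188 and 218 in anti-PD-1, and 189.9, 229.98 and 214 in COMB. In OAT-1746 against CTR 7 of 8 were lower at an unadjusted p under 0.05 (edgeR, median −1.67), and from OAT-1746 to COMB 6 of 8 were higher (median 0.94), of which 1 passed the adjusted threshold.

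Further marker lists cover the other cell types. The 10 NK cell genes, led by Klrk1, summed to 77.9 and 83.3 CPM in CTR, 111 and 25.3 in OAT-1746, 332 and 201 in anti-PD-1, and 86.0, 173 and 184 in COMB. OAT-1746 replicate 2 was thus lowest, and COMB replicate 1 lowest within COMB, as for the nuclear genes. Unlike for those, OAT-1746 replicate 1 was above both CTR libraries. The NK median log2 fold change in OAT-1746 against CTR was 0.18, with 6 of 10 genes higher (50.5% of all genes were). In anti-PD-1 against CTR it was 2.32, with 10 of 10 higher (53.1% of all), against −0.09 over the nuclear respiratory chain genes. Neutrophil genes, led by Csf3r, summed to 323 to 713 CPM, highest in OAT-1746 replicate 2. In OAT-1746 against CTR 8 of the 10 were higher (4 at an unadjusted p under 0.05, edgeR, median log2 fold change 0.75). From OAT-1746 to COMB 7 were lower (median −0.18), of which 1 passed the adjusted threshold. Dendritic cell genes summed to 351 to 859.8 CPM, of which Fscn1 alone was 268 to 794, highest in the same library; 6 of the 8 were lower in OAT-1746 than in CTR (3 at an unadjusted p under 0.05, edgeR, median −0.39). T cell genes, 9 of 10 in the table and led by Cd4, summed to 12.1 to 27.6 CPM, with Cd3d, Cd3e and Cd3g at 0 in CTR replicate 2 and Cd3e and Cd8b1 at 0 in OAT-1746 replicate 1. Neuron genes summed to 7.26 to 22.5 CPM, with the OAT-1746 libraries highest at 22.5 and 20.9. Their median log2 fold change was 1.12 in OAT-1746 against CTR and −1.39 in COMB against OAT-1746, where 4 of 8 fell in edgeR. These signs are those of the mitochondrial genes, and also of the microglia (0.93 and −0.70), neutrophil (0.75 and −0.18) and erythroid (0.80 and −0.90) medians. Neurons are not among the cell types that the paper lists for the CD11b+ sort, and their part was not tested. Oligodendrocyte genes (Cnp most abundant) summed to 295 to 487 CPM, astrocyte genes (Slc1a3) to 122 to 254, endothelial genes (Flt1) to 130.3 to 211 and erythroid genes (Hbb-bs) to 0.845 to 30.7. Of the 8 astrocyte genes, 2 rose and 1 fell in COMB against OAT-1746 in edgeR (6.84% and 8.94% of all tested genes did). Counts this small cannot be told from those shares.

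**Figure D5:**
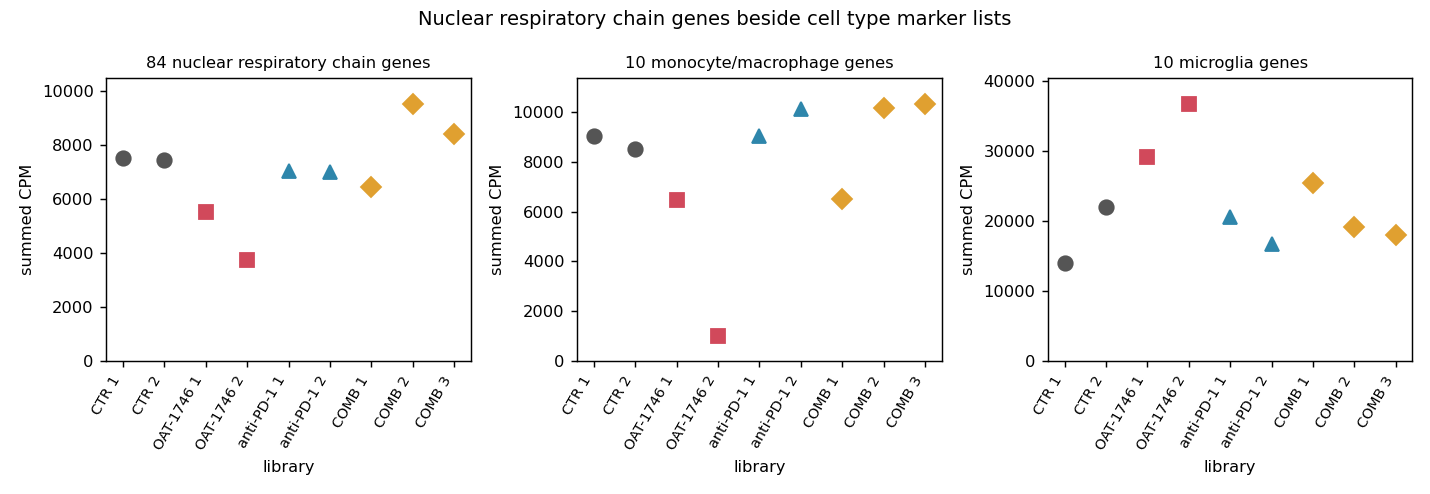
Summed CPM (vertical axes) of the 84 nuclear respiratory chain genes, the 10 monocyte and macrophage genes and the 10 microglia genes in each library (horizontal axes). OAT-1746 replicate 2 is lowest in the left and middle panels (3725 and 1009.8 CPM) and highest in the right one (36756 CPM).

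Nuclear respiratory chain genes are short. Their median exon length was 1578 bases, against 1144 for the counted mitochondrial genes and 4521.5 for all tested genes, and their GC content 51.4%, 37.1% and 50.2%. Across the 12538 genes, which are not independent replicates, the log2 fold change of OAT-1746 against CTR had a Spearman correlation with exon length of 0.236, and that of COMB against OAT-1746 one of −0.339. Shorter genes thus tended to be lower in OAT-1746. By class of length the medians of the nuclear members and of all genes in OAT-1746 against CTR were −0.76 against −0.57 under 1 kb (20 members), −0.76 against −0.36 from 1 to 2 kb (31 members), −0.63 against −0.10 from 2 to 4 kb (19 members) and −0.83 against 0.09 from 4 to 8 kb (9 members). The classes of 2 to 4 kb and 4 to 8 kb hold under 20 members, and the class over 8 kb only Ndufs1 (−0.14 against 0.21). From OAT-1746 to COMB the medians were 0.98 against 0.68, 0.86 against 0.45, 0.83 against 0.14 and 0.89 against −0.09 in the same order of classes. The cause of these differences was not tested.

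Promoters of nuclear members were searched because most of these genes shared a direction. Of the 84 nuclear genes, 68 had a promoter in the RefSeq table (GRCm38.p6), 300 bases from 250 before to 50 after the start, among 27025 genes. Motifs were searched on both strands as fixed letters, and a match is a description only. The NRF1 core GCGCATGCG was in 8 members (11.8%, against 1.95% of all promoters), the ETS core CCGGAAG, bound by GABP among others, in 16 (23.5%, against 9.93%), and the YY1 core AAGATGGCG in 7 (10.3%, against 1.64%). TATAAA was in 7 (10.3%, against 15.7%). How members with and without a match differ was not tested, and the groups are small. In OAT-1746 against CTR the median log2 fold change was −0.89 for 8 members with the NRF1 letters and −0.79 for 58 without, −0.79 and −0.78 for the ETS letters, −0.73 and −0.79 for the YY1 letters, and −0.72 (5 tested members) and −0.79 for TATAAA. From OAT-1746 to COMB it was 0.72 with and 0.93 without the NRF1 letters, 0.90 and 0.91 for ETS, 0.95 and 0.89 for YY1, and 0.86 and 0.92 for TATAAA.

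Windows of 45 bases upstream of the start show these letters in 5 members, with the match in capitals, as read 5′ to 3′ on the strand of the gene. Atp5k (chr5:108434423-108434467, − strand) and Cox6a1 (chr5:115349094-115349138, −) hold the NRF1 letters. Atp5e (chr2:174464178-174464222, −), Ndufb6 (chr4:40279627-40279671, −) and Sdhd (chr9:50603870-50603914, −) hold the ETS letters in reverse complement. Atp5e and Ndufb6 are among the members with the largest values in COMB against OAT-1746. The medians there were nonetheless 0.90 with and 0.91 without the ETS letters.
Atp5k: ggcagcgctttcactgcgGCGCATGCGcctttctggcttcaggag
Cox6a1: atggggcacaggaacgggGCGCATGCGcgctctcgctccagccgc
Atp5e: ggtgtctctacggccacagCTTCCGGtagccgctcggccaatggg
Ndufb6: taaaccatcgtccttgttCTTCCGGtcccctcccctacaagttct
Sdhd: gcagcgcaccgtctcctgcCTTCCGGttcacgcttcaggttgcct

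Genes that serve the chain without being matched by the symbol rule were read from lists. In OAT-1746 against CTR none of them passed edgeR's adjusted threshold, so the counts are at an unadjusted p under 0.05, with DESeq2's adjusted count after them. Of all tested genes 16.1% were higher and 16.2% lower at this p, and 8.36% and 7.37% by DESeq2. Of 17 other complex I subunit or assembly genes, 1 was higher and 4 lower (DESeq2 0 and 2), with a median log2 fold change of −0.35. For 4 complex II assembly genes the counts were 0 and 1 (DESeq2 0 and 0; median −0.30). Other complex III genes, 7 tested, gave 0 and 2 (DESeq2 0 and 1; median −0.22). Complex IV assembly genes, 19 of 21 tested, gave 0 and 4 (DESeq2 0 and 2; median −0.53), and the 4 complex V assembly and inhibitor genes 0 and 2 (DESeq2 0 and 1; median −0.49). Import and outer membrane genes, 19 of 20 tested, gave 0 and 17 (DESeq2 0 and 8; median −0.70), and citrate cycle and pyruvate dehydrogenase genes, 17 of 17 tested, 0 and 12 (DESeq2 0 and 4; median −0.41). All 7 medians were thus below 0, and most genes had a p under 0.05 only in the import and citrate cycle lists.

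The remaining lists did not all have the same sign. The replication and transcription genes of mitochondrial DNA, 12 of 13 tested, gave 2 higher, close to the share of all genes, and 0 lower (DESeq2 0 and 0; median 0.20), among them Tfam at 0.12 and the mitochondrial RNA polymerase Polrmt at 0.47. Mitochondrial RNA processing and stability genes, 16 of 18 tested, gave 1 higher and 6 lower (DESeq2 0 and 4; median −0.25), with Slirp at −0.78 and its partner Lrpprc at −0.11. Electron carrier and coenzyme Q genes, 14 tested, gave 1 and 2 (DESeq2 0 and 0; median −0.30), with cytochrome c (Cycs) at −1.04. Regulators of respiratory chain genes, 10 of 12 tested, gave 3 and 0 (DESeq2 1 and 0; median 0.18), with Nrf1 at 0.21, Gabpa at 0.09, Esrra at −0.04, Ppargc1b at −0.71, Pprc1 at 0.48 and Myc at 0.67. The coactivator Ppargc1a was not tested, at 0.593 CPM or less in each library. The helicase of mitochondrial DNA replication, Twnk, was at 0.56. Esrra turned to 0.06 without OAT-1746 replicate 1 and 0.05 with library size only.

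From OAT-1746 to COMB, edgeR called genes in most of these lists, against 6.84% of all tested genes higher and 8.94% lower; with so few genes, counts of 1 or 2 cannot be told from these shares. They were 4 of 17 complex I genes, all higher, 1 of 4 for complex II, 2 of 7 for complex III, 4 of 19 for complex IV, 1 of 4 for complex V, 2 of 16 for RNA processing, 3 of 17 for the citrate cycle and 6 of 19 for import, again all higher. Electron carrier and coenzyme Q genes gave 1 higher and 1 lower, mitochondrial DNA replication and transcription genes 0 (0 at an unadjusted p under 0.05, 0 by DESeq2), and regulators 0 higher and 4 lower. Cyc1, the cytochrome c1 of complex III, rose by 1.08 (edgeR adjusted p = 0.0274), Slirp by 1.21 (adjusted p = 0.0219), the cytochrome c oxidase assembly gene Cmc1 by 1.27 (adjusted p = 0.0287), the ATP synthase assembly gene Tmem242 by 1.09 (adjusted p = 0.0171), fumarase (Fh1) by 0.97 (adjusted p = 0.0271) and the import channel gene Timm23 by 0.99 (adjusted p = 0.0274). Myc fell by 1.19 on the log2 scale (edgeR adjusted p = 0.0160), from 58.3 and 78.5 CPM in OAT-1746 to 30.6, 28.97 and 30.1 in COMB, with 41.6 and 44.1 in CTR. The complex I assembly gene Ndufaf5 (1.11, edgeR adjusted p = 0.0432) and the complex II assembly gene Sdhaf4 (0.91, adjusted p = 0.0378) rose, and the mitochondrial RNA gene Tbrg4 (0.55, adjusted p = 0.0442), the coactivator Pprc1 (−0.84, adjusted p = 0.0286) and the DNA-binding GABP subunit Gabpa (−0.47, adjusted p = 0.0464) also passed. Ndufab1, the acyl carrier protein of complex I (0.64, edgeR adjusted p = 0.0672), Cycs (1.22, adjusted p = 0.0525) and the ATP synthase inhibitor Atpif1 (0.50, adjusted p = 0.101) did not. No call of a gene named here held without OAT-1746 replicate 2, without COMB replicate 2 or without COMB replicate 3. Those of Ndufaf5, Sdhaf4, Tbrg4 and Gabpa were also lost without CTR replicate 1, CTR replicate 2, anti-PD-1 replicate 1 or anti-PD-1 replicate 2 and under the length and GC correction, those of Tbrg4 and Gabpa without OAT-1746 replicate 1, and that of Pprc1 without CTR replicate 1.

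The mitochondrial ribosomal RNAs, mt-Rnr1 and mt-Rnr2, lie outside the rule and are given after their values were seen; they precede mt-Nd1 on the same strand. mt-Rnr2, the larger one, was at 923 and 926 CPM in CTR, 1823 and 1659 in OAT-1746, 1649 and 1175 in anti-PD-1, and 2069.7, 1736 and 1631 in COMB. All 7 libraries from treated mice were above both CTR libraries, unlike for the mitochondrial messenger RNAs. The log2 fold change from CTR was 0.92 in OAT-1746, 0.58 with anti-PD-1 and 0.97 in COMB, with edgeR adjusted p of 0.0701, 0.906 and 0.511 in a fit over all genes. The ratio of mitochondrial protein-coding counts to ribosomal RNA counts was 10.2 and 7.73 in CTR, 9.11 and 9.24 in OAT-1746, 2.45 and 8.59 in anti-PD-1, and 4.84, 2.85 and 3.61 in COMB. The 3 COMB libraries and anti-PD-1 replicate 1 were thus below the other 5 libraries. Ribosomal RNA is read here from poly-A libraries, so these are levels of the molecules that such libraries capture.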

How the data were processed

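CD11b+ cells of 4 groups (CTR 2 libraries, OAT-1746 2, anti-PD-1 2, COMB 3) were sequenced by the authors as stranded poly-A RNA, paired-end. Per the labels, the authors trimmed reads (Trimmomatic), aligned them to mm10 (STAR), processed the alignments with Picard, counted reads of mapping quality 10 or more per gene (HTSeq-count), and deposited gene counts. Groups follow the sample titles; anti-PD-1 replicate 2, whose treatment label reads anti-PD-2, was kept in anti-PD-1.

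Genes were annotated with GENCODE M21 (GRCm38), which held 53620 of 53801 rows and left out 181. Of 21890 protein-coding genes, 12538 passed filterByExpr (minimum count 10) and were fitted with edgeR 4.0.16 quasi-likelihood (R 4.3.3, TMM, 4 groups, 6 contrasts, 5 residual degrees of freedom, adjusted p under 0.05). The common biological coefficient of variation was 0.2136, with 4.152 prior degrees of freedom. The CPM values are computed from these counts with TMM-scaled library sizes; log2 CPM for per-library differences use a prior count of 2, and shares and ratios use raw counts. Library totals were 13048075 to 18796479, at which a count of 0 allows 0.16 to 0.23 in CPM (3 counts). Alternative fits used limma 3.58.1 and DESeq2 1.42.0. Copies were searched with blastn 2.17.0. They were listed at 90% identity and 250 bases or more, while closest matches and shared windows had no length minimum. Figures were drawn with matplotlib 3.10.9 (Python 3.11.15). The edgeR, DESeq2 and voom fits and the length and GC correction were tested on simulated data.

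Members and lists were chosen with earlier results of these data known. Named genes are all mitochondrial members, the 2 nuclear members per complex highest per kilobase, the 3 largest log2 fold changes either way per contrast (mean of 5 CPM or more), members called by edgeR (at most 10 per contrast, by p), paralog sets, all 4 Sdh genes, chosen genes of the pathway lists and the gene of each list that differed most between OAT-1746 and CTR.

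Alternatives were DESeq2, limma voom with sample weights, size factors, library size only, mitochondrial genes left out of scaling, no filter, a filter that asks 10 counts of each library, a test of all annotated genes, a term for replicate number, a correction for length and GC content (loess span 0.5), and leaving out each library.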

Additional observations from a re-analysis of the deposited data

Results flagged for a closer look

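A signal in genes that the comparisons do not use drew attention 3 times, in each case above the level in CTR; the genes were chosen after their values were seen. Gm29216, a nuclear copy of the end of mt-Co1 at 99.79% identity, had 85 counts in OAT-1746 replicate 2 and 0 to 2 in the other 8 libraries. Among the mitochondrial ribosomal RNAs, mt-Rnr1 had a mean of 349 CPM in CTR, 551 in OAT-1746, 508 with anti-PD-1 and 530.1 in COMB. mt-Rnr2 had a mean of 925 CPM in CTR, 1741 in OAT-1746, 1412 with anti-PD-1 and 1812 in COMB. The differences of the ribosomal RNAs did not pass the adjusted threshold in edgeR's fit over all genes (adjusted p of mt-Rnr2 0.0701, 0.906 and 0.511; unadjusted p 0.00247, 0.0272 and 0.00111), and no explanation was tested for any of the 3.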

How the results depend on the processing

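No median over the mitochondrial or the nuclear genes changed sign in OAT-1746 against CTR or COMB against OAT-1746. Counts of called members did move, and the cause was not tested. In OAT-1746 against CTR the count of 0 was 35 with DESeq2, 8 without a filter and 0 to 65 with 1 library left out. In COMB against OAT-1746 the count of 50 was 24 with the length and GC correction and 0 to 73 with 1 library left out, and the scaling alternatives gave 50 or 51. In the interaction the count of 0 was 25 with DESeq2, 7 with limma voom, 2 without a filter and 0 to 64 with 1 library left out. Fewer libraries leave fewer degrees of freedom.

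The nuclear median ranged with 1 library left out from −1.16 to −0.43 in OAT-1746 against CTR, where it was −0.46 with the length and GC correction, and from 0.58 to 1.28 in COMB against OAT-1746, where it was 0.47. In COMB against CTR it ranged from 0.01 to 0.26. The mitochondrial median ranged from −1.07 to 0.28 in anti-PD-1 against CTR and from −0.67 to −0.01 in COMB against CTR. The ratio of COMB minus OAT-1746 was −1.43 with log2 CPM averaged over genes.

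Libraries with the same replicate number share only a number: their deviations from the group mean correlated at −0.35 to 0.11. With a replicate block, in which COMB replicate 3 has a term of its own, 0 members were called in COMB against OAT-1746 (54 higher and 3 lower at an unadjusted p under 0.05). With the replicate block and the length and GC correction together 0 were called (29 and 5 at an unadjusted p under 0.05), and the nuclear median was 0.44.

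Among named genes with an unadjusted p under 0.05 in the comparison, direction reversed for 4 under the length and GC correction, given alone and then with the replicate block. Ndufb3 was at −0.0659 and −0.0658 in COMB against OAT-1746. Ndufc2 was at 0.0266 and 0.0184 in OAT-1746 against CTR, and at −0.293 and −0.2913 in COMB against OAT-1746. Uqcrh was at −0.0252 and −0.0009, and Atpif1 at −0.0088 and −0.0015, in COMB against OAT-1746. Signs also turned for genes without such a p or outside the named ones. With the correction 71 of 80 nuclear genes were above 0 in COMB against OAT-1746, in place of 79, and Ndufb11, picked after its values were seen, was at −0.14. Ndufa4 (−0.37), Cox7a2l (−0.30), Cox6a2 (−0.51), Cox6b2 (−0.19) and mt-Nd6 (−0.29) turned there too, as did Cox4i2 (−0.37) with the replicate block added and Nrf1 (0.08). In OAT-1746 against CTR 73 of 80 nuclear genes were below 0 with the correction, in place of 77, and mt-Nd6 (0.13), Cox7a2l (0.12) and Cox6a2 (0.26) turned. The cause was not tested. Of the other values of named genes with such a p 1695 kept their side of the threshold, 145 newly passed it, 263 no longer passed it and 5 moved by more than 1.5 times.

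With 2 or 3 libraries per group, a mean rests on few samples, and a group left with 1 library was assumed to vary like the others. Genes with few counts, such as Cox7a1, Cox4i2 and Cox6b2, have wide errors. Of the mitochondrial genes, 5 had no counts and mt-Nd3 too few to be compared in the filtered fit.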
